A study of Mus musculus with 12 samples.

Results

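The genes described here pattern the retina along its dorsoventral axis or make, break down or bind retinoic acid. They are Vax1, Vax2, Aldh1a1, Aldh1a2, Aldh1a3, Cyp26a1, Cyp26c1 and Crabp1, 8 of the 19954 genes in the authors' table of 12 RNA-seq libraries. They were chosen by name, and 7 of them passed the filter on low counts. Aldh1a2 did not.

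The mutant embryos were Tbr2f/f;Six3-Cre, with floxed Tbr2 alleles and a Cre recombinase driven in the early eye field, and the other embryos were wildtype. Tbr2, a T-box transcription factor gene, is listed as Eomes. All embryos were C57BL/6 and taken at E15.5 of embryonic development, and each library was a pool of 12 retinas of 1 sex drawn from several litters. The groups were mutant males, wildtype males, mutant females and wildtype females with 3 pools each, numbered 4, 5 and 6. The p-values therefore measure the spread between pools, not between embryos. In RNA from whole retinas, fewer cells of a type and less RNA per cell cannot be told apart.

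Retinoic acid is made from retinaldehyde by the aldehyde dehydrogenases Aldh1a1, Aldh1a2 and Aldh1a3 and is broken down by Cyp26 enzymes. In the embryonic mouse eye Aldh1a1 marks the dorsal retina and Aldh1a3 the ventral retina, while Cyp26a1 and Cyp26c1 are expressed in a band between them. Vax1 and Vax2 are homeodomain transcription factors of the ventral eye, and Crabp1 binds retinoic acid in the cytoplasm.

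Cyp26a1 is a target of retinoic acid signalling, and its promoter is shown because it was the only member promoter with a match to a receptor-type repeat. The RefSeq promoter table (GRCm38.p6; 250 bases before to 50 after each start) held entries for 6 of the 8 members, 7 promoters in all, and none for Vax2 or Aldh1a3. The search looked on both strands for AGNTCA repeated in the same direction with 1, 2 or 5 bases between. The window below lies at chr19:37697756-37697807 on the plus strand, upstream of the Cyp26a1 start, and capitals mark the match, which reads as the repeat on the minus strand with 5 bases between.
Cyp26a1: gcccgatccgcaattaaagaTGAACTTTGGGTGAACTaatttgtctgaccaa
Read 5′ to 3′ on the minus strand, the match is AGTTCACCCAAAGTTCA. It lies 32 to 16 bases before the start. The repeat with 5 bases between occurred in 67 of 32851 promoters (0.204%), and repeats with 1 or 2 bases between occurred in 0.219% and 0.107% of promoters and in no member promoter. A match describes letters and not binding.

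In mm10, Cyp26a1 (chromosome 19, 37697808 to 37701528) lies 4409 bases downstream of Cyp26c1 (37685581 to 37693398) on the same strand. Aldh1a1 (20601961 to 20643462) and Vax1 (59166187 to 59170056) are on the same chromosome. Crabp1 (54764748 to 54773110) and Aldh1a2 (71215789 to 71296243) lie on chromosome 9, Aldh1a3 (66390892 to 66427517) on chromosome 7, and Vax2 (83711264 to 83738313) on chromosome 6. All 8 are protein coding, and the counts cover whole genes. Vax2 overlaps the antisense gene Vax2os, which had 484 to 901 counts per library. The strand setting of the counting is not given in the sources used here, so reads of Vax2 and Vax2os cannot be told apart with certainty.

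Total counts ran between 18514607 and 27072825 per library. Eomes was lower in every mutant library (9.62 to 27.4 CPM, counts scaled to a common library total) than in any wildtype library (53.4 to 76.1 CPM), with a log2 fold change of -1.76 (SE 0.15, adjusted p = 0.000484, edgeR quasi-likelihood test with Benjamini-Hochberg adjustment). Retinal progenitor markers summed to 2576 to 3172 CPM in mutant pools and 2517 to 2696 CPM in wildtype pools, with Rax and Pax6 among them. Lens markers summed to 5.46 to 2004 CPM in mutant pools and 10.3 to 823 CPM in wildtype pools. Periocular mesenchyme markers summed to 30.9 to 43.8 CPM in mutant pools and 29.9 to 38.0 CPM in wildtype pools, with Twist1, Dcn and Lum at 0 in at least 1 library. The 12 libraries fell into 2 sets by the mitochondrial gene mt-Nd6, at 373 to 484 CPM in 5 (mutant male 4, wildtype male 5, mutant female 4 and wildtype females 4 and 6) and at 9.70 to 48.4 CPM in the other 7.

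Levels were compared between genes as deposited FPKM, which is per length. In wildtype retina Aldh1a1 had the highest level of the 8 at 260.9 ± 11.3 FPKM (SD, n = 6), above 99.1% of the genes listed. Crabp1 followed at 129 ± 31.0 FPKM, 2.02-fold below Aldh1a1. Vax2 stood at 54.2 ± 4.96 FPKM and Aldh1a3 at 48.0 ± 2.57 FPKM, and the ranges of these neighbours overlapped over pools. Cyp26a1 followed at 21.0 ± 2.55 FPKM, 2.29-fold below Aldh1a3. Vax1 at 5.88 ± 0.855 FPKM and Cyp26c1 at 4.87 ± 0.838 FPKM overlapped each other and lay near the middle of all listed genes, above 56.2% and 53.2% of them. Aldh1a2 was last at 0.108 ± 0.115 FPKM, 45.2-fold below Cyp26c1. Of the 7 steps between neighbours in this order, 5 separated ranges that did not overlap.

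**Figure D1:**
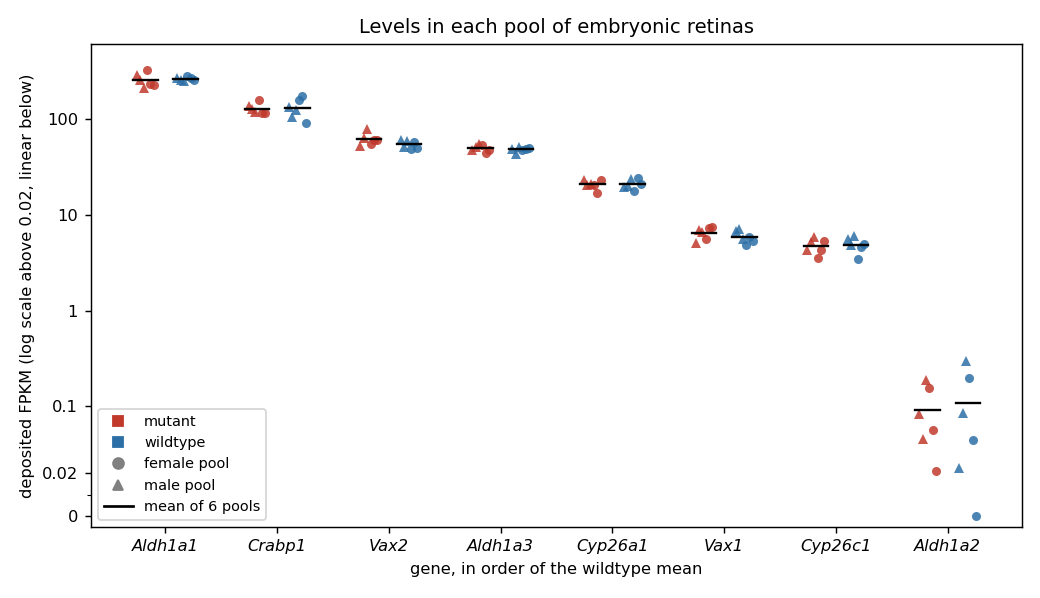
Deposited FPKM of the 8 genes in each pool (vertical axis, log scale above 0.02 and linear below), with mutant pools left of wildtype pools, circles for female and triangles for male pools, and bars at the mean of 6 pools. Mutant and wildtype points of every gene overlap, and the wildtype means run between 260.9 FPKM for Aldh1a1 and 0.108 FPKM for Aldh1a2.

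Within the families, shares and ratios were taken per pool, and the genotype means of each differed by less than the larger of their SDs. Aldh1a1 made up 83.4 ± 2.44% of the summed FPKM of the 3 dehydrogenases in mutant pools and 84.4 ± 0.956% in wildtype pools (SD, n = 6 each). Aldh1a3 made up 16.6 ± 2.43% in mutant pools and 15.54 ± 0.947% in wildtype pools. The ratio of Vax2 to Vax1 in FPKM was 9.55 ± 1.33 in mutant and 9.32 ± 1.21 in wildtype pools. Cyp26a1 exceeded Cyp26c1 by a ratio of 4.49 ± 0.847 in mutant and 4.38 ± 0.658 in wildtype pools. It exceeded Cyp26b1, the other Cyp26 enzyme, by 27.2 ± 3.83 in mutant and 31.9 ± 6.75 in wildtype pools. Crabp1 and the related binding protein Crabp2 stood at about equal FPKM, with a ratio of 1.04 ± 0.129 in mutant and 1.03 ± 0.146 in wildtype pools.

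The first comparison asked whether loss of Tbr2 in the eye field goes with other levels of these genes. Over both sexes, none of the 7 tested members passed the edgeR test at an adjusted p of 0.05, against 4 of 15467 genes tested (0.0259%). None had an unadjusted p under 0.05, against 451 genes, though without mutant male 4 there was 1 such member and 1851 such genes. Within the libraries high in the mitochondrial gene mt-Nd6 there were 1 such member and 1184 of 15941 genes. Within those low in it there were 2 members and 1409 of 16149 genes. DESeq2 called none of the 8, against 15 of 19944 genes (0.0752%). Of the 7, 3 were higher and 4 lower in mutant pools, with a median log2 fold change of -0.02, against -0.01 over all genes tested. No bound of the 95% intervals lay beyond a 1.33-fold change in either direction. The mutant and wildtype ranges of all 8 members overlapped, as they did for all but 0.207% of genes.

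Vax2, a ventral transcription factor, had the smallest p. Its level was 64.1, 77.5 and 96.6 CPM in mutant males 4, 5 and 6 and 67.2, 75.2 and 74.8 CPM in mutant females, against 73.6, 63.6 and 73.5 CPM in wildtype males and 60.4, 71.2 and 61.3 CPM in wildtype females. In 4 of 6 mutant pools Vax2 was above every wildtype pool, and mutant male 6 was the highest of all. The log2 fold change was 0.17 (95% interval -0.02 to 0.35, adjusted p = 0.918, edgeR). Leaving out each library in turn gave 0.09 to 0.23, with the lowest value without mutant male 6. Reads of the antisense gene could not be separated from it.

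Vax1, needed in mouse for the optic stalk and optic nerve, had 5.29, 7.19 and 6.91 CPM in mutant males and 5.77, 7.52 and 7.72 CPM in mutant females, against 7.02, 7.38 and 5.79 CPM in wildtype males and 5.02, 6.05 and 5.59 CPM in wildtype females. In females 2 of 3 mutant pools lay above every wildtype pool, and in males 1 of 3 mutant pools lay below every wildtype pool. The log2 fold change over both sexes was 0.13 (95% interval -0.15 to 0.41, adjusted p = 0.918, edgeR). The optic stalk and disc markers, a list that includes Vax1, summed to 33.0 to 45.2 CPM in mutant pools and 25.1 to 36.2 CPM in wildtype pools, and the part of such tissue in the Vax1 values was not tested.

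Aldh1a1, the dorsal dehydrogenase, had 579, 516 and 426 CPM in mutant males and 652, 475 and 460.0 CPM in mutant females, against 549, 518 and 513 CPM in wildtype males and 569, 549 and 517 CPM in wildtype females. The wildtype pools lay close together, and the mutant pools spread to both sides, with 2 above every wildtype pool and 3 below every wildtype pool. The 2 above, mutant male 4 and mutant female 4, were high in mt-Nd6, and the 3 below were low in it. The part of these library sets in the spread was not tested. The coefficient of variation in CPM was 16.3% in mutant pools and 4.33% in wildtype pools. The log2 fold change was -0.05 (95% interval -0.26 to 0.16, adjusted p = 0.933, edgeR). In the 3 libraries richest in the lens crystallin Cryaa, Aldh1a1 stood at 475 to 518 CPM, inside the 426 to 652 CPM of the other 9.

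Aldh1a3, the ventral dehydrogenase, had 151, 170 and 186 CPM as the lowest, median and highest of 6 mutant pools, against 149, 166 and 174 CPM in wildtype pools. In 3 of 6 mutant pools it was above every wildtype pool, and the lowest pools of both genotypes lay side by side. Its log2 fold change of 0.04 had the narrowest interval of the 7 (-0.10 to 0.17, adjusted p = 0.931, edgeR). Aldh1a2, which in mouse embryos acts mainly in mesenchyme around the eye, had 4, 2 and 8 counts in mutant males and 8, 3 and 1 in mutant females, against 1, 5 and 16 in wildtype males and 12, 2 and 0 in wildtype females. The total was 26 counts over 6 mutant pools and 36 over 6 wildtype pools. A count of 0 in wildtype female 6 allows up to 0.150 CPM (3 counts, counting error only), and no difference was detectable at this depth.

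Cyp26a1 had 30.0, 36.7 and 40.7 CPM as the lowest, median and highest of 6 mutant pools, against 31.3, 36.2 and 43.0 CPM in wildtype pools. Its log2 fold change was -0.02 (95% interval -0.22 to 0.17, adjusted p = 0.963, edgeR). Cyp26c1 had 6.12, 8.24 and 10.2 CPM in mutant pools, against 6.06, 8.47 and 10.3 CPM in wildtype pools. Both retinoic acid-degrading enzymes thus covered nearly the same range in either genotype. The log2 fold change of Cyp26c1 was -0.05 (95% interval -0.31 to 0.22, adjusted p = 0.951, edgeR).

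Crabp1 had 110, 101 and 94.9 CPM in mutant males and 125, 91.1 and 91.3 CPM in mutant females, against 107, 82.7 and 98.1 CPM in wildtype males and 124, 138 and 71.5 CPM in wildtype females. The highest and the lowest pool of all 12 were both wildtype females. The log2 fold change was -0.02 (95% interval -0.33 to 0.29, adjusted p = 0.984, edgeR), the widest interval of the 7. The authors' deposited table, from their own DESeq2 comparison of both sexes, gave a log2 fold change of 0.14 for Vax2 (adjusted p = 0.951) and of -0.01 for Crabp1 (adjusted p = 0.990). For Eomes it gave -0.81, against -1.76 in the edgeR fit, so the sizes in that table are not compared with the edgeR values.

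**Figure D2:**
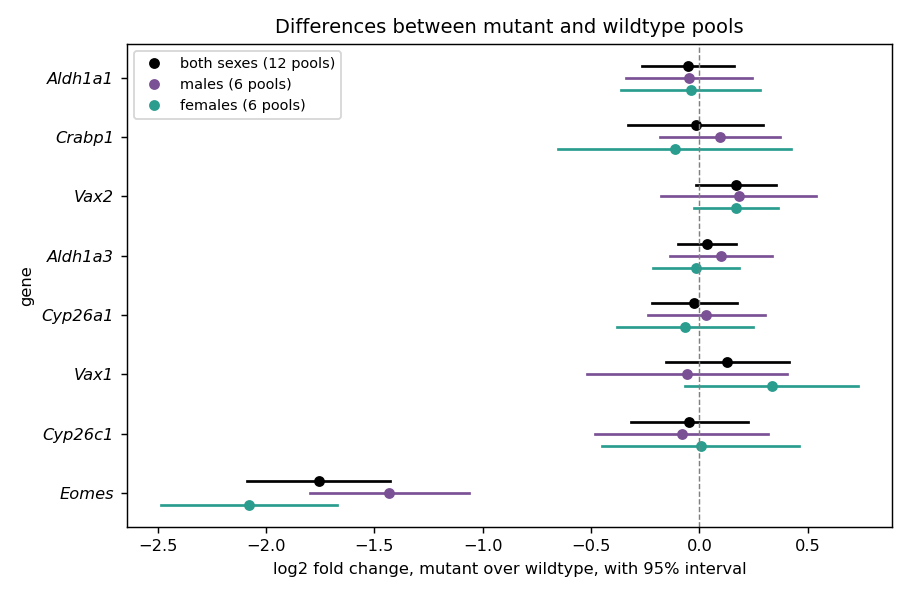
Log2 fold changes, mutant over wildtype, with 95% intervals from edgeR for the 7 tested genes and the targeted gene Eomes, over both sexes (12 pools), males (6) and females (6). Every interval of the 7 genes includes 0, while the 3 intervals of Eomes lie below it.

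Males and females were also tested alone, and again no member passed. The targeted gene Eomes had log2 fold changes of -1.43 in males (adjusted p = 0.295, edgeR) and -2.08 in females (adjusted p = 0.0271, edgeR). Because Eomes itself did not pass in males, the lack of calls there does not show that members were unchanged. In males the edgeR test called 0 of 7 members and 0 of 14945 genes (0.0%), with 0 members and 210 genes at an unadjusted p under 0.05 (1 and 1833 without mutant male 4), while DESeq2 called 6 genes (0.0307%) and no member. In females it called 0 of 7 members and 1 of 14956 genes (0.00669%), 2 genes with the replicate number as a block. DESeq2 called none of the members in females, against 9 genes (0.0451%). At an unadjusted p under 0.05 there were 0 members and 394 genes in females, but 3 members and 2175 genes without mutant female 4, and 1 member and 440 genes without wildtype female 5. The ranges of every member overlapped within each sex, where 5.51% of genes in males and 8.09% in females did not overlap. Vax2 had log2 fold changes of 0.18 in males (95% interval -0.18 to 0.54) and 0.17 in females (-0.02 to 0.36). With libraries rescaled within bins of genes by GC content these were 0.054 in males and 0.15 in females. The value in males was 0.015 without mutant male 6 and 0.31 without mutant male 4. Vax1 had -0.06 in males (-0.52 to 0.40) and 0.33 in females (-0.06 to 0.73). The difference between these, the interaction of genotype and sex, was 0.40 for Vax1 (95% interval -0.14 to 0.94, adjusted p = 0.99996, edgeR). It was called for no member and for 0 of 15467 genes (0.0%), with no member and 267 genes at an unadjusted p under 0.05, and for 0 genes by DESeq2.

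Female pools were set against male pools over both genotypes in the same fit. Cyp26c1 had the largest difference on the counts as deposited, with 6.12, 7.48 and 9.17 CPM in mutant females and 6.06, 8.08 and 8.54 CPM in wildtype females, against 7.53, 8.95 and 10.2 CPM in mutant males and 9.62, 8.40 and 10.3 CPM in wildtype males. The ranges overlapped, and the log2 difference, female minus male, was -0.25 (95% interval -0.52 to 0.02, adjusted p = 0.879, edgeR). No member passed, against 2 of 15467 genes (0.0129%), and none passed in DESeq2, which called 3 genes (0.015%). At an unadjusted p under 0.05 there were 0 members and 431 genes, and 2 members and 1986 genes without mutant male 4. The other 6 members lay between -0.11 for Vax2 and 0.14 for Crabp1 on the log2 scale. With rescaling within GC bins the difference was -0.15 for Cyp26c1 and 0.012 for Vax2, and that of Crabp1 was then the largest at 0.21.

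The 9 lists of dorsal, ventral, nasotemporal and retinoic acid pathway genes held no gene that passed the edgeR test over both sexes, in males or in females. Of the dorsal list, 4 of 8 genes were higher and 4 lower in mutant pools over both sexes, with a median log2 fold change of -0.02. Its ephrin gene Efnb2 had 62.2 ± 3.45 FPKM in mutant and 64.7 ± 2.32 FPKM in wildtype pools, and its T-box gene Tbx2 53.3 ± 11.2 FPKM in mutant and 50.8 ± 3.90 FPKM in wildtype pools (SD, n = 6 each). Of the ventral list, which holds Vax1, Vax2 and Aldh1a3, 7 of 9 were higher and 2 lower, with a median of 0.10. The list summed to 942 to 1224 CPM in mutant pools (median 1000), highest in mutant male 6, and to 938 to 1003 CPM in wildtype pools (median 978). The ventral receptor gene Ephb2 had 46.9 ± 6.12 FPKM in mutant and 43.6 ± 2.21 FPKM in wildtype pools, and the nuclear receptor gene Nr2f1 50.3 ± 6.97 FPKM in mutant and 46.1 ± 2.25 FPKM in wildtype pools. Over all genes tested the median was -0.01. On the nasotemporal list, 5 of 6 were higher, with a median of 0.07, and Hmx1, a nasal homeodomain gene, had 174 ± 50.4 FPKM in mutant and 159 ± 15.4 FPKM in wildtype pools. Foxd1, a temporal transcription factor gene named after its values were seen, had the list's 1 unadjusted p under 0.05 (log2 fold change 0.29, adjusted p = 0.918, edgeR).

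None of the retinoid genes around the members passed either. Of the genes for retinol uptake and retinaldehyde synthesis, 6 of 10 tested were higher and 4 lower, with a median log2 fold change of 0.02. Rdh10, which oxidises retinol, had 19.8 ± 2.08 FPKM in mutant and 19.2 ± 1.12 FPKM in wildtype pools. Of the 3 Cyp26 genes, 1 was higher and 2 lower, and Cyp26b1 stood low at 0.775 ± 0.140 FPKM in mutant and 0.670 ± 0.0680 FPKM in wildtype pools. Of the 4 retinoid-binding genes, 2 were higher and 2 lower, and Fabp5 had 66.7 ± 5.56 FPKM in mutant and 65.9 ± 4.27 FPKM in wildtype pools. Of 9 receptor and cofactor genes, 7 were higher and 2 lower, with a median of 0.05, among them the corepressor gene Ncor1 at 40.4 ± 2.30 FPKM in mutant and 38.9 ± 2.15 FPKM in wildtype pools. Of 11 genes known to respond to retinoic acid, 6 were higher and 5 lower, with a median of 0.00, and Meis1, a homeodomain cofactor gene, had 21.9 ± 1.17 FPKM in mutant and 22.05 ± 0.931 FPKM in wildtype pools.

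The pools differed among themselves along the base composition of the transcripts. For each library the mean log2 CPM of the fifth of genes richest in G and C was set against that of the fifth poorest, and this difference, centred over the 12 libraries, is called its GC tilt. The tilt was -0.46 to -0.32 in the 5 libraries high in mt-Nd6 and 0.0066 to 0.90 in the 7 low in it, with no overlap. Mutant male 6, the pool with the highest sum of the ventral list, had the highest tilt. The tilt averaged 0.12 ± 0.50 in mutant and -0.12 ± 0.24 in wildtype pools (SD, n = 6 each). Members' transcripts ran between 46.1% GC for Aldh1a1 and 65.4% for Vax1, against a median of 49.9% over genes tested.

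Vax2 differed between these sets of libraries. It stood at 60.4 to 67.2 CPM in every library high in mt-Nd6 and at 71.2 to 96.6 CPM in every library low in it, so that the sets did not overlap. This was so for 15.7% of genes in either direction and for 6.35% in the direction of Vax2, and for no other member. After subtracting group means, Vax2 (61.7% GC) had r = 0.94 and rho = 0.93 with the tilt over 12 pools (exact permutation within groups, two-sided, p = 0.00463 and 0.00309, adjusted over the 7 members 0.0324 and 0.0216). The replicate numbers were taken to pair the female pools, and with same-numbered mutant and wildtype females permuted together, over 216 orders, the adjusted p was 0.0648 for both. Without the 2 libraries of most extreme tilt r was 0.96, and within the 7 libraries low in mt-Nd6 it was 0.97 (exact permutation p = 0.0556). For all correlations within these 7 libraries, genotype means were subtracted and libraries were permuted within genotype, across the sexes, over 144 orders.

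Cyp26c1 (63.3% GC) had r = 0.75 and rho = 0.66 with the tilt (exact permutation p = 0.0201 and 0.0648, adjusted 0.0468 and 0.151), and Aldh1a1 (46.1% GC) had r = -0.83 and rho = -0.80 (exact permutation p = 0.0201 and 0.0293, adjusted 0.0468 and 0.103). With the female pairs permuted together neither passed (adjusted p = 0.0756 for r in both). Without the 2 libraries of most extreme tilt r was 0.54 for Cyp26c1 and -0.61 for Aldh1a1. Within the 7 libraries low in mt-Nd6 the values were r = 0.69 for Cyp26c1 and r = -0.70 for Aldh1a1 (exact permutation p = 0.139 and 0.194). Vax1, Aldh1a3, Cyp26a1 and Crabp1 did not pass over the 12 pools, with r of 0.55, 0.16, -0.05 and -0.19. Without the 2 libraries of most extreme tilt their r were 0.29, 0.60, 0.07 and 0.22. Within the 7 libraries low in mt-Nd6 they were -0.46, 0.87, 0.12 and -0.11. The value of Aldh1a3 there had the smallest p of the 7 members (exact permutation p = 0.0486, adjusted 0.194). Over the 12 pools, 49.3% of all genes tested had an r with the tilt beyond 0.6 in either direction. So did 3 of the 7 members, and this is therefore not particular to the members. When each library was rescaled within 20 bins of genes by GC content, the log2 fold change of Vax2 between mutant and wildtype was 0.10 (95% interval -0.0045 to 0.21), against 0.17 without it. With a term for the set of libraries it was 0.13.

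**Figure D3:**
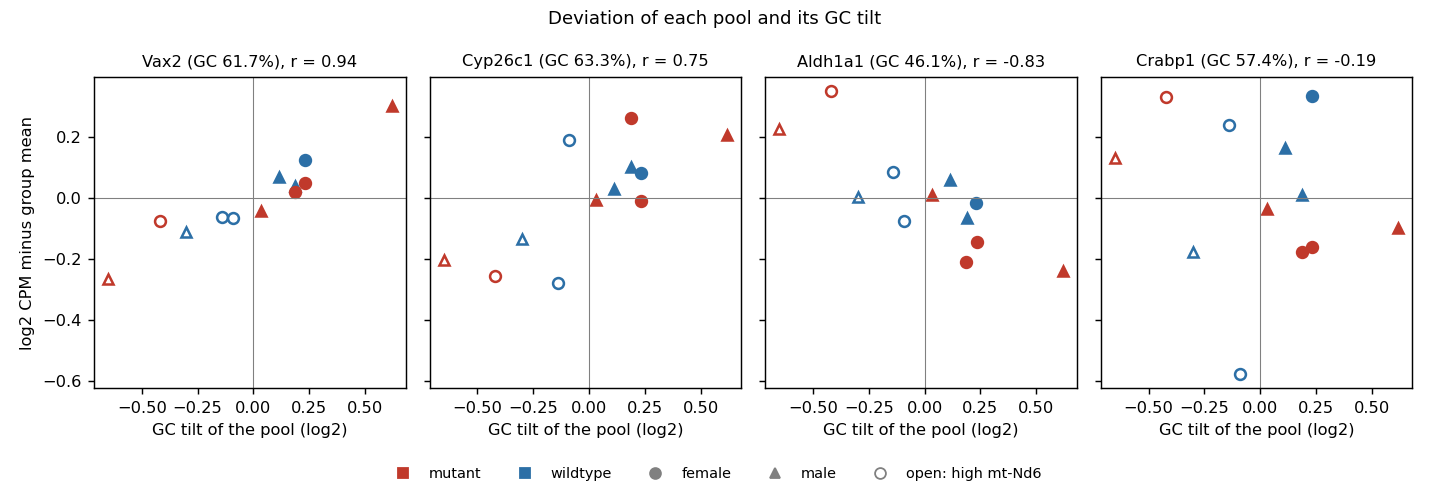
Log2 CPM minus the mean of the pool's own group (vertical axis) against the GC tilt of the pool, also minus its group mean (horizontal axis, log2), for Vax2, Cyp26c1, Aldh1a1 and Crabp1. Open symbols are the 5 libraries high in mt-Nd6, which lie left of the 7 others, and the points of Vax2 lie closest to a line (r = 0.94).

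In the 2 sets of libraries 4 of the 7 members had log2 fold changes of opposite sign, and none passed the test in either set over both sexes. The share of all genes that turned sign was not counted, so the turns are not read as particular to the members. Vax1 had -0.14 in the libraries high in mt-Nd6 and 0.23 in those low in it, and Cyp26a1 had 0.13 in the high and -0.14 in the low set. Aldh1a1 and Crabp1 were those with an interaction at an unadjusted p under 0.05. In the 5 high in mt-Nd6, Aldh1a1 had a log2 fold change, mutant over wildtype, of 0.22 (adjusted p = 0.564, edgeR) and Crabp1 one of 0.37 (adjusted p = 0.666, edgeR). Within the 7 libraries low in it, the values were -0.18 for Aldh1a1 (adjusted p = 0.569, edgeR) and -0.27 for Crabp1 (adjusted p = 0.558, edgeR). The interaction of genotype and set, tested after these values were seen, was 0.42 for Aldh1a1 (SE 0.11) and 0.65 for Crabp1 (SE 0.24). Neither passed adjustment in edgeR (adjusted p = 0.468 for both), and 0 of 15467 genes did (0.0%), while both members were among the 1597 genes with an unadjusted p under 0.05. Leaving out each library in turn gave 0.33 to 0.49 for Aldh1a1 and 0.48 to 0.88 for Crabp1.

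Co-variation between pools was measured as the correlation of log2 CPM after subtracting the mean of each of the 4 groups, over 12 pools and 21 pairs of members. No pair passed adjustment over the 21, and 4 pairs had an unadjusted p under 0.05 by Pearson's r and 2 by Spearman's rho. Dorsal Aldh1a1 and Cyp26c1 ran opposite to each other, with r = -0.83 and rho = -0.83 (exact permutation p = 0.00463 and 0.0100, adjusted 0.0972 and 0.211, two-sided). Without the 2 pools farthest out in Aldh1a1, mutant female 4 and mutant male 6, r was -0.77. Within the 7 libraries low in mt-Nd6, with genotype means subtracted, r was -0.68 (exact permutation within genotype, p = 0.139). Leaving out wildtype male 4 or wildtype male 5 brought the pair past adjustment (r = -0.85 and -0.86). In both the exact permutation p was 0.00231, adjusted 0.0486, the smallest values that 432 orders allow a single pair. With all pools and the female pairs permuted together, the adjusted p of Aldh1a1 with Cyp26c1 was 0.243 (exact permutation p = 0.0231).

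Aldh1a1 and Crabp1 ran together with r = 0.60 and rho = 0.63 (exact permutation p = 0.0100 and 0.0278, adjusted 0.105 and 0.292). Without mutant female 4 and mutant male 6 r was 0.52, and within the 7 libraries low in mt-Nd6 it was 0.43 (exact permutation p = 0.292). Vax2 ran with Cyp26c1 at r = 0.63 and rho = 0.57 (exact permutation p = 0.0370 and 0.0957, adjusted 0.235 and 0.431) and against Aldh1a1 at r = -0.66 and rho = -0.58 (exact permutation p = 0.0448 and 0.103, adjusted 0.235 and 0.431). Without the 2 pools farthest out in Vax2, mutant male 6 and wildtype female 6, these r were 0.77 and -0.56. Within the 7 libraries low in mt-Nd6 they were 0.60 and -0.69 (exact permutation p = 0.319 and 0.208).

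Rescaling within GC bins, an alternative chosen after the data were seen, changed which pairs ran together. Aldh1a1 with Crabp1 then had r = 0.81 and rho = 0.92 (exact permutation p = 0.00077 for both, the smallest value the orders gave, adjusted 0.0162 for r), the 1 pair of 21 past adjustment when the 4 groups were permuted independently. With the female pairs permuted together over 216 orders it did not pass (exact permutation p = 0.00463, adjusted 0.0972), the smallest values that number of orders allows a single pair. Leaving out each library in turn gave r between 0.77 and 0.94. The adjusted p was 0.0486 each time (exact permutation with groups independent), the smallest that the 432 orders allow a single pair. Without mutant females 4 and 6, the pools farthest out, r was 0.82. Within the 7 libraries low in mt-Nd6 it was 0.40 (exact permutation p = 0.438). Aldh1a1 with Cyp26c1 had r = -0.45 (exact permutation p = 0.258) after rescaling. Vax2 changed sign against both partners, to r = -0.35 with Cyp26c1 and r = 0.64 with Aldh1a1 (exact permutation p = 0.347 and 0.143).

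**Figure D4:**
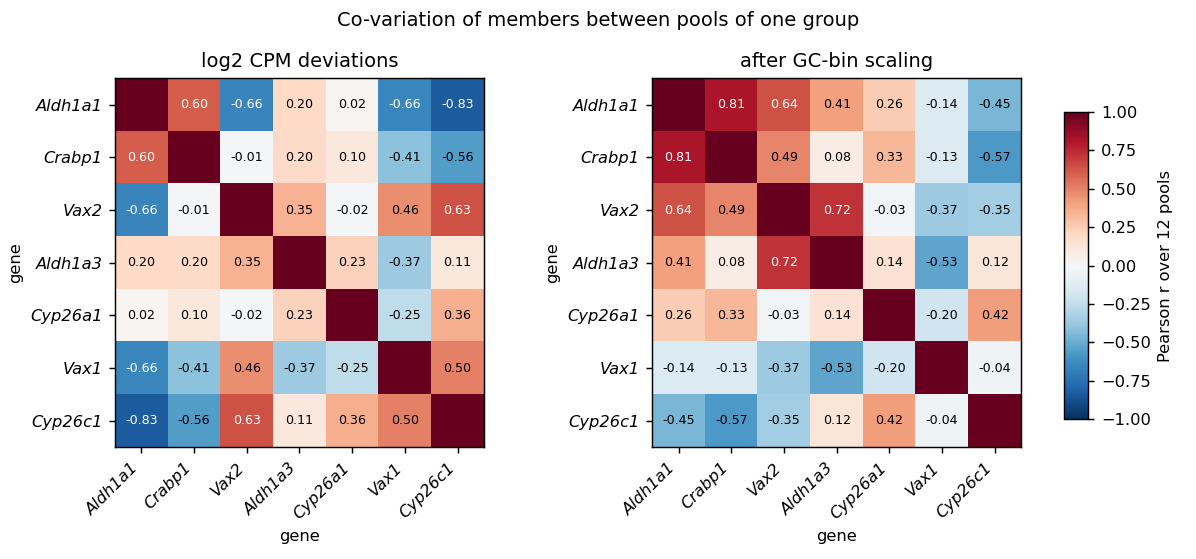
Pearson correlation between the 7 tested genes over 12 pools after subtracting group means (colour and printed value), from log2 CPM on the left and after rescaling within GC bins on the right. Aldh1a1 with Cyp26c1 runs at -0.83 on the left and -0.45 on the right, Vax2 with Aldh1a1 at -0.66 and 0.64, and Aldh1a1 with Crabp1 at 0.60 and 0.81.

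For each tested member genes most like it over the 12 pools were taken, up to 3 each, by the correlation of log2 CPM deviations among 13691 genes of at least 1 CPM on average. Vax2 had Pofut2, Actn4 and BC068157 at r of 0.98 each. Cyp26c1 had Astn2 at 0.98, Gmip at 0.98 and Jag2 at 0.97, and Aldh1a1 had Tlk2 at 0.97 and Ccnyl1 at 0.96. Crabp1 had Ppa1 at 0.94, Insc at 0.92 and Fam32a at 0.90, Aldh1a3 had E2f7 at 0.93, Gm5801 at 0.88 and Gla at 0.88, Vax1 had Lrrc8d at 0.92, Sez6l at 0.92 and Tagap1 at 0.91, and Cyp26a1 had Irf1 at 0.92, Ccnl2 at 0.91 and Nxf1 at 0.90. These genes were picked as the highest of many over libraries that share depth and base composition, so the values describe the pools and carry no p.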

How the data were processed

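RNA was measured in 12 libraries of embryonic mouse retina. The submitters' processing notes name CASAVA, alignment to mm10 with STAR 2.5, counting with HTSeq 0.6.1 and DESeq2 for the comparison. The annotation release is not given in the sources used here. The authors deposited whole-number read counts per gene, FPKM (counts per kilobase of listed gene length and scaled by the library total), and the log2 fold changes and p-values of their comparison. Depth was 18514607 to 27072825 counts per library.

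Counts were tested with edgeR 4.0.16 (R 4.3.3; TMM, filterByExpr, two-sided quasi-likelihood test, Benjamini-Hochberg over all genes tested, threshold 0.05), with sex as a term where both sexes entered. Standard errors and intervals follow from the F statistic of that fit. CPM values are counts over the library total. Co-variation used log2 CPM with a prior count of 2, group means removed, and every order of libraries within groups. Within the libraries low in mt-Nd6 the genotypes served as the groups, with both sexes together (144 orders). GC content came from the longest GENCODE vM21 transcript per gene (99.4% of genes tested). The members, lists and rules were chosen with earlier results of these data known. The rule for named genes took the members, Eomes, up to 3 list genes of highest mean CPM per list, the 3 genes most like each member and the pairs of smallest p. Some genes that this rule names are not reported here. Tests were also run on simulated counts that held neither the GC tilt nor the library sets, and no result is drawn from them. Alternatives were RLE scaling, no filter, DESeq2 1.42.0, a replicate block, library sets, 3 lens-rich libraries left out, each library left out, GC-bin scaling, and for correlations the paired females permuted together.

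The labels say nothing of what the numbers 4, 5 and 6 mark. Deviations of same-numbered mutant and wildtype pools correlated at 0.30, 0.35 and 0.21 in females and at -0.31, 0.03 and 0.44 in males. Differently numbered pools correlated at -0.50 to 0.28 in females and at -0.53 to 0.57 in males. For the correlations the numbers were taken to pair the pools in females and not in males, which is an assumption. The replicate block in the edgeR fits paired same-numbered pools in males as well as in females, although the male values above do not all run together. Mutant female 4 and wildtype females 4 and 6 were all high in mt-Nd6, and a pairing cannot be told apart from these sets.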

Additional observations from a re-analysis of the deposited data

How the results depend on the processing

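The counts of members called stayed at 0 under every alternative run except in females low in mt-Nd6 (1, Crabp1, log2 fold change -0.57), and the order of levels was the same under each of its alternatives. Over all genes, both sexes gave 4 calls, against 15 with DESeq2, 1 with the replicate block, 7 with GC-bin scaling, 9 with a term for library set, 0 without the 3 libraries highest in Cryaa and 1 to 5 leaving out each library. Males gave 6 with DESeq2, against 0. Females gave 1, against 9 with DESeq2, 2 with the replicate block, 2 with GC-bin scaling and the block, 62 and 61 within libraries high and low in mt-Nd6, 0 without the Cryaa-rich libraries and 0 to 2 leaving out each library. The fits in females within the mt-Nd6 sets have an arm of 1 library each (mutant female 4 in the high set, wildtype female 5 in the low set), assumed to vary like the others, so no call is drawn from them. For Crabp1 that lone pool stood at 138 CPM, against 124 and 71.5 CPM in the other wildtype females. The interaction gave 2 within libraries high in mt-Nd6, where 3 of its 4 groups hold 1 library, against 0. Female against male gave 2, against 4 with GC-bin scaling, 1 within libraries low in mt-Nd6 and 1 without the Cryaa-rich libraries. For both sexes, GC-bin scaling gave 4 calls with the replicate block, against 7 without it. In males and for the interaction the block gave 0 calls, with GC-bin scaling or without. The cause was not tested for any of these moves.

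Signs near 0 turned in both sexes. With mt-Nd6 high, the log2 fold change was -0.14 for Vax1, 0.22 for Aldh1a1, 0.13 for Cyp26a1 and 0.37 for Crabp1. It was 0.0044 for Aldh1a1 with GC-bin scaling, 0.041 for Cyp26a1 without the Cryaa-rich libraries and 0.0018 for Crabp1 with the replicate block. Leaving out each library gave -0.061 to 0.030 for Cyp26a1, -0.11 to 0.0078 for Cyp26c1 and -0.11 to 0.067 for Crabp1. In males Vax1 was 0.15 within libraries low in mt-Nd6 and -0.17 to 0.060 leaving out each library. In females Aldh1a1 was 0.030 with a term for library set, 0.28 within libraries high in mt-Nd6, 0.034 without the Cryaa-rich libraries and -0.24 to 0.061 leaving out each library. Crabp1 in females was 0.36 within libraries high in mt-Nd6 and -0.35 to 0.048 leaving out each library.

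Member pairs past adjustment numbered 1 with GC-bin scaling and 0 to 1 leaving out each library, against 0. With the replicate block, as female pairs permuted together, it was 0 with GC-bin scaling and 0 without. GC-bin scaling, with or without that block, turned Vax2 with Cyp26c1 to r = -0.35 and Vax2 with Aldh1a1 to 0.64. Males within libraries high in mt-Nd6 (1 pool per genotype) and a replicate block for female against male could not be fitted. Vax1 and Cyp26c1 had 111 to 246 counts per library and Aldh1a2 had 0 to 16.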
